A study of Homo sapiens with 87 samples.

Results

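The potassium and sodium channel genes are the 107 genes, among 35438 listed in the 2 gene tables, whose symbol has the form KCN plus letters and a number, or SCN plus a number and A or B. The rule uses the symbol alone and no measured value. The set covers 93 KCN and 14 SCN genes. It holds pore-forming subunits, auxiliary subunits and, among the KCN genes, silent subunits that shape other pores without conducting on their own.

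Potassium channels let potassium leave the cell and hold the membrane potential negative, while voltage-gated sodium channels carry the inward current that starts an action potential. Leak channels of the KCNK family are open at rest, voltage-gated pores open on depolarisation, KCNN channels open on internal calcium, and KCNJ channels pass current more easily inward. Beta, KCNE, KCNAB and KCNIP subunits bind pores and change their gating or their delivery to the membrane. Most of these genes are best known from neurons, heart muscle and epithelia, and many are little used in cultured cells of blood origin.

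The cells were HAP1, a human line that carries a nearly haploid genome and descends from cells of a chronic myeloid leukaemia. Each knockout removed a gene of BAF (SWI/SNF), which shifts nucleosomes along DNA and has SMARCA4 or SMARCA2 as its motor subunit. The knockout table held 24 knockout clones with 3 libraries each, and 3 wild-type libraries against which every clone was compared. The knocked-out genes were ACTB, ARID1A, ARID1B, ARID2, BCL11A, BCL11B, BCL7A, BCL7B, BRD7, BRD9, DPF1, DPF2, DPF3, PBRM1, PHF10, SMARCA2, SMARCA4, SMARCC1, SMARCC2, SMARCD1, SMARCD2 and SMARCD3. ARID1A (clones 618-10 and 618-3) and SMARCA4 (clones 2878-4 and 2878-6) had 2 clones, and every other gene was represented by 1 clone, so that a clone's own history and the loss of its gene cannot be told apart there. The labels of the SMARCC2 libraries name no clone. In the series these libraries are listed among those of the double-loss table, apart from wild type and the other knockouts. Separate handling is not stated, and its effect could not be told apart from SMARCC2 loss. The double-loss table held 6 groups of 2 libraries: ARID2 knockout with SMARCA4 knockdown, SMARCA4 knockout with ARID2 knockdown, wild type with knockdown of both genes, SMARCA4 knockout with a control knockdown, ARID2 knockout with a control knockdown, and wild type with a control knockdown. The labels of the double-loss table do not name the knockout clones. The labels do not state separate cultures for the libraries of a group, so p-values cover the spread between these libraries, which may be technical.

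Totals per library ran from 14917644 to 29993652 counts over the knockout libraries and from 9144150 to 19789622 counts over the double-loss ones. The mRNA of the targeted gene was called lower in 14 of 24 clones, and every knockout library lay below every wild-type library in 20. The exceptions were BCL11A, BCL11B, BCL7A and BRD9. In the double-loss table SMARCA4 mRNA was called lower in all 3 groups with SMARCA4 knockout or with its knockdown in ARID2 knockout cells. In wild type with both knockdowns it had a log2 fold change of -1.84 that was not called (adjusted p = 0.1043), and ARID2 mRNA was called lower in none of the groups. Levels are in CPM, the listed count scaled to the total of its library. Called genes are those with an adjusted p no higher than 0.05 in edgeR's quasi-likelihood test, taken over all genes tested, and a log2 fold change of 1 or more in size. In bulk RNA, fewer cells of a type and less RNA per cell cannot be told apart.

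Of the 107 channel genes, 65 passed the filter on low counts in the knockout libraries, and 53 passed it in the double-loss libraries. The 42 that passed in neither had group means of at most 0.5413 CPM, and 26 of them stood at the lowest listed value in at least 50% of the knockout libraries. By role these were the KCNA pores KCNA1, KCNA2, KCNA3, KCNA4, KCNA5, KCNA6 and KCNA10 with KCNB2 and KCNC2, the auxiliary subunits KCNIP1, KCNMB2 and KCNMB3, and the silent subunits KCNG2, KCNG4, KCNS2 and KCNV1. KCNH1, KCNH6, KCNH7, KCNQ3 and KCNQ5 did not pass, nor did the inward rectifiers KCNJ1, KCNJ2, KCNJ6, KCNJ9 and KCNJ16 or the leak channels KCNK4, KCNK7, KCNK10, KCNK16, KCNK17 and KCNK18. The rest were the calcium- or sodium-activated pores KCNMA1, KCNN4, KCNT1, KCNT2 and KCNU1 and the sodium pores SCN1A, SCN2A, SCN4A, SCN7A and SCN10A. Of the 10 sodium pores 5 passed. The pass rate of the potassium roles ran from 3 of 8 calcium- or sodium-activated pores to 12 of 15 auxiliary subunits. A gene that passed through the group where it was high had to differ between groups, so that counts over the 65 describe what was testable and nothing more.

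Most of the tested channel genes varied between the groups, as did most of all tested genes, and fewer were called in a clone. Over the 25 groups of the knockout table, 54 of the 65 varied at an adjusted p of at most 0.05, where 75.4% of all 16159 tested genes did. Over the 24 clones, 101 of 1560 gene-by-clone comparisons were called higher and 132 lower, which is 6.474% and 8.462%, where 2.46% and 2.24% of all comparisons were called higher and lower. Of the 65 genes, 41 were called in at least 1 clone, where 25.3% of all tested genes were. Of these 41, 15 were called only higher, 11 only lower, and 15 higher in some clones and lower in others. The 24 clones share their 3 wild-type libraries, so a wild-type library that stands high or low enters every one of these comparisons.

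SMARCA4 clone 2878-4 had 20 channel genes called, 6 higher and 14 lower, where 11.3% of all tested genes were called. SMARCA4 clone 2878-6 also had 20, 7 higher and 13 lower, beside 10.2% of all tested genes. The median log2 fold change of the 65 genes was -0.20 in clone 2878-4 and -0.15 in clone 2878-6, where that of all tested genes was -0.02 in each. ARID1B had 11 higher and 7 lower (6.86% of all tested genes called), SMARCC1 7 and 8 (6.1%), ARID1A clone 618-3 6 and 9 (6.1%) and clone 618-10 6 and 8 (6.28%). ARID2 had 3 higher and 11 lower (5.53%), BCL11B 8 and 5 (3.81%), ACTB 6 and 6 (5.1%) and SMARCC2 7 and 5 (6.49%). BCL11A had 6 higher and 4 lower (4.14%), BCL7B 4 and 6 (6.12%) and DPF2 7 and 3 (2.98%). BRD7 had 2 higher and 5 lower (3.55%), SMARCD1 2 and 5 (4.57%), SMARCD3 3 and 4 (3.47%), SMARCD2 2 and 4 (2.8%) and BRD9 2 and 4 (3.28%). Fewest were called in PBRM1 (1 higher and 3 lower, 2.96%), BCL7A (1 and 2, 3.54%), PHF10 (1 and 2, 2.68%), DPF1 (2 and 1, 1.49%), DPF3 (1 and 1, 1.34%) and SMARCA2 (0 and 2, 2.19%). Without wild-type replicate 1 the DPF2 count was 6 in place of 10, and without replicate 1 of the knockouts the BCL7A count was 5 in place of 3. DPF3 and SMARCA2, with 2 each, had 1 without replicate 3 and without replicate 2 of the knockouts, and PHF10, with 3, had 1 without either of these. SMARCC2 cells had the highest group mean of all 25 groups for 12 of the 65 genes, and SMARCA4 clone 2878-4 the lowest for 12. The same counts over all tested genes are not given here, so these are not shown to be particular to channel genes. In SMARCC2 the log2 fold changes of 14508 genes rose with the GC content of their transcripts (Spearman's rho 0.4582 across genes, which are not independent replicates), against -0.09635 to 0.2066 in the other 23 clones. The channel genes' transcripts had a median GC content of 54.7% against 50.06% over all, and the part of this trend in their SMARCC2 values was not tested. KCNK1, SCN9A and KCND3 were singled out after their values were seen. Their SMARCC2 means lay nearer wild type of the double-loss table than wild type of the knockout table, and that of KCNE3 did not. Whether separate handling of the SMARCC2 libraries had a part was not tested.

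**Figure D1:**
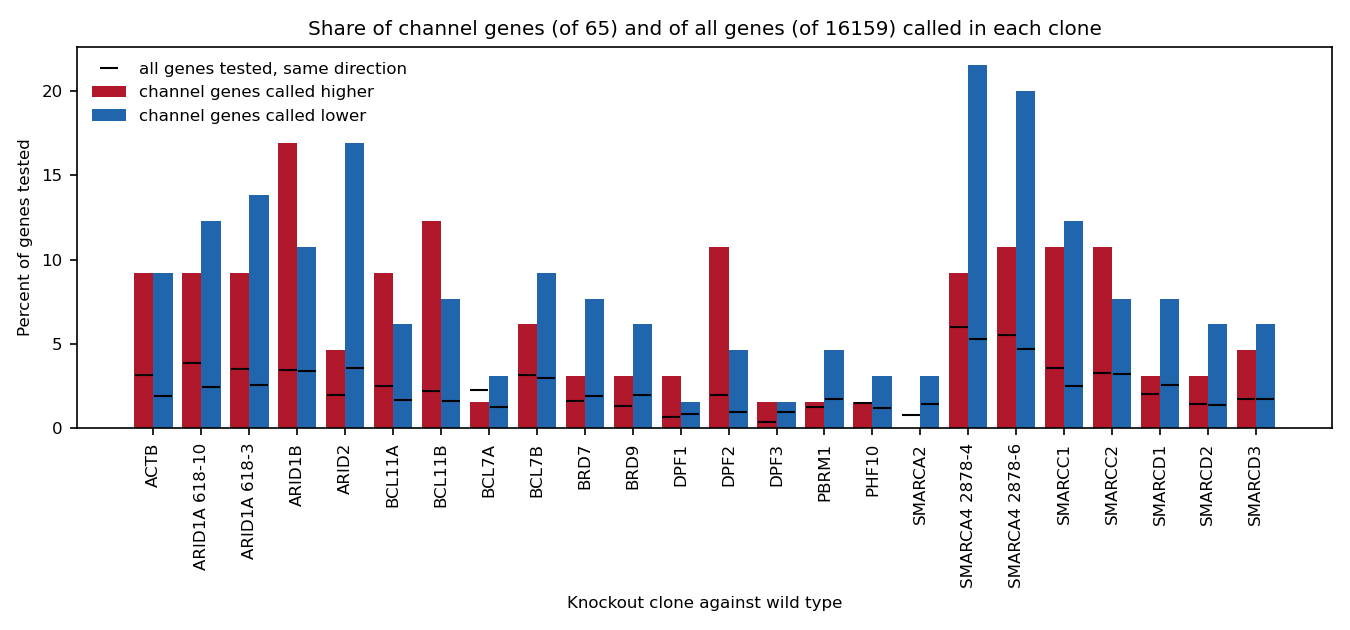
Percentage of the 65 tested channel genes called higher (red bars) and lower (blue bars) in each of the 24 knockout clones, with black dashes at the same percentage over all 16159 tested genes. The blue bars of SMARCA4 clones 2878-4 (14 genes) and 2878-6 (13 genes) are the tallest, followed by the red bar of ARID1B and the blue bar of ARID2 (11 genes each).

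**Figure D2:**
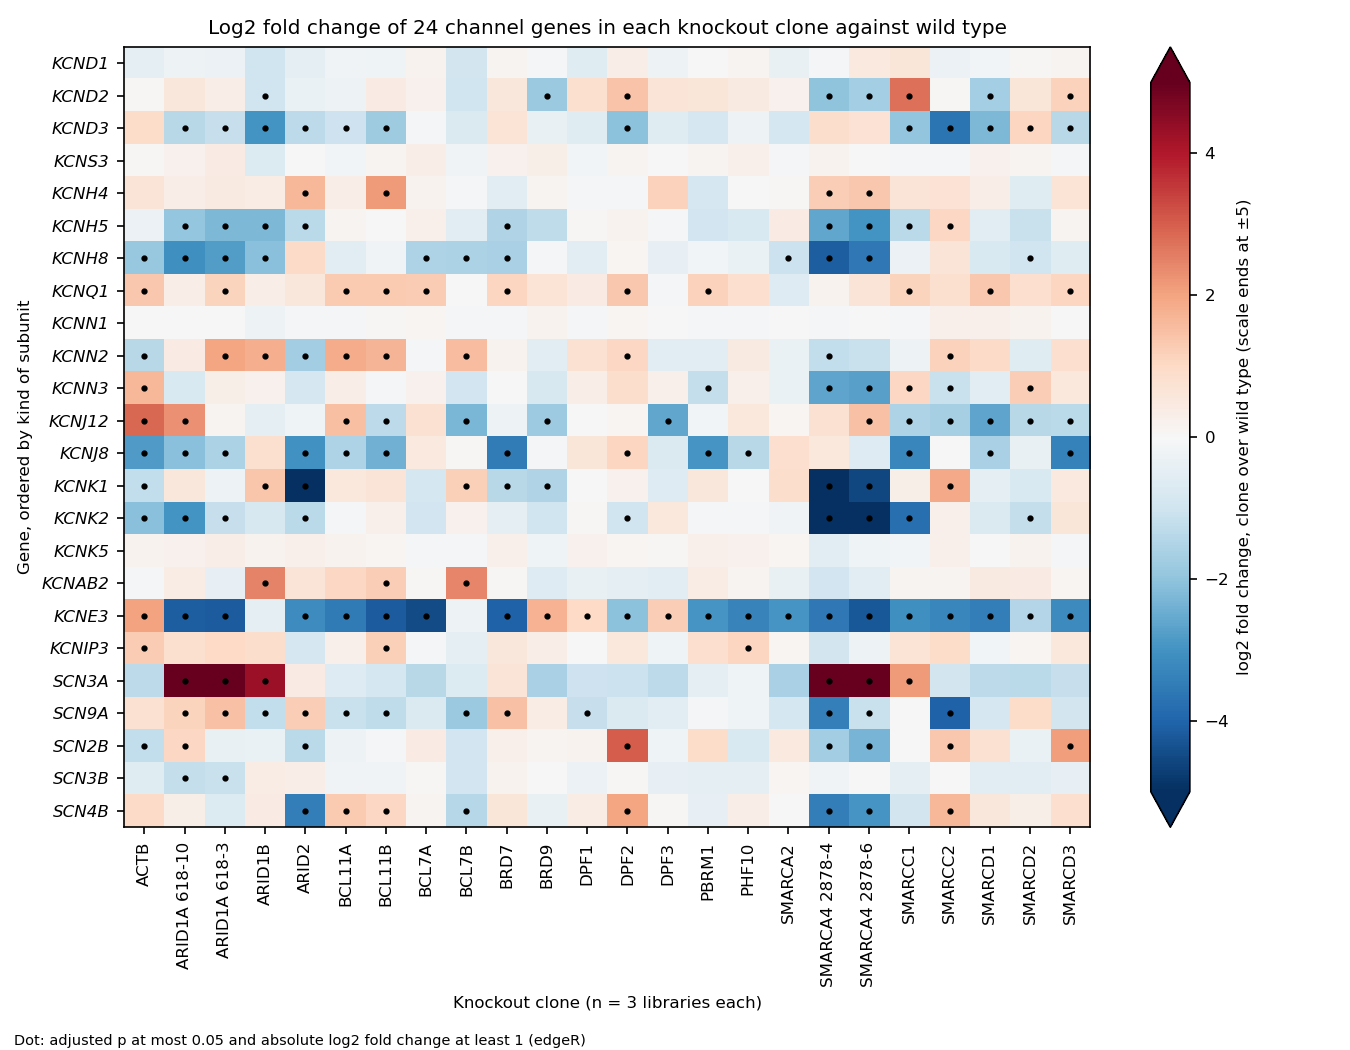
Log2 fold change of 24 channel genes (rows) in each of the 24 knockout clones (columns) against wild type, with a dot where the gene was called and the colour scale ending at 5 in each direction. KCNE3 was called in 22 clones, 18 of them lower, while KCNQ1 was called higher in 11 and lower in none.

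The leak channels held the largest falls of any channel gene in the knockout table. The promoters of KCNK2 and KCNK1, the 2 genes that fell furthest, and of KCNK6, which was higher in the same SMARCA4 clones, are shown because they differ in how many CG pairs lie around their starts. The promoter of KCNK9 was not used here. The stretches run from 250 bases before to 50 bases after an annotated start, 5′ to 3′ on the plus strand, from RefSeq on GRCh38.p14, with CG pairs in capitals. KCNK2, whose channel is gated by membrane stretch, has an upstream start at chr1:215005292-215005591 and a downstream start at chr1:215082487-215082786. KCNK1, a weakly conducting leak channel, starts at chr1:233613856-233614155, and KCNK6, another leak channel, at chr19:38319595-38319894.
KCNK2 upstream start: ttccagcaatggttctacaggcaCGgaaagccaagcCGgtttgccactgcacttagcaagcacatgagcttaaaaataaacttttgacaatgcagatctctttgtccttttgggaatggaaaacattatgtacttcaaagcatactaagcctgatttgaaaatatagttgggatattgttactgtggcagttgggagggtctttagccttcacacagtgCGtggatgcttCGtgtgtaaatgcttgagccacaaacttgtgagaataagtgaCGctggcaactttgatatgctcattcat
KCNK2 downstream start: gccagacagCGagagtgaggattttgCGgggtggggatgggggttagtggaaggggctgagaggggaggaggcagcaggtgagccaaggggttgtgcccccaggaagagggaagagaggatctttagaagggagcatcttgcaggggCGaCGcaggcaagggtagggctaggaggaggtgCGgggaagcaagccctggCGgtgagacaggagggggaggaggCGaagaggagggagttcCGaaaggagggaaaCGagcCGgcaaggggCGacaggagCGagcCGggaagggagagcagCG
KCNK1: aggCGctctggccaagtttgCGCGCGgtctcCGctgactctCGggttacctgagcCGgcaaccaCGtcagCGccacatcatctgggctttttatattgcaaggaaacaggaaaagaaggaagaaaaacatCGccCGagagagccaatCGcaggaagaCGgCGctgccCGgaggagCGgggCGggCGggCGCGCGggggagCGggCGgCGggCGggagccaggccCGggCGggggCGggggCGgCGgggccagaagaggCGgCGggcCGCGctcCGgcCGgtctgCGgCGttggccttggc
KCNK6: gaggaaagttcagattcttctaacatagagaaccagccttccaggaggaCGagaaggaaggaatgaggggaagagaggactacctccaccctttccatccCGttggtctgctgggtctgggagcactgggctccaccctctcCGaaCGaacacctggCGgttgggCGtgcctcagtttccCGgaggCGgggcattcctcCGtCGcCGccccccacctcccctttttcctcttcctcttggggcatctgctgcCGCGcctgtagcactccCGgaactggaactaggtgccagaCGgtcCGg
The upstream KCNK2 stretch holds 5 CG pairs and is 42% G or C, while the downstream one holds 14 and is 64.67% G or C. KCNK1 holds 38 CG pairs (70.67% G or C) and KCNK6 16 (61% G or C). Of the 107 channel genes, 78 matched 120 RefSeq promoters, whose median of 15 CG pairs stands beside 14 over all 35116 promoters. The letters TGANTCA, a form of the AP-1 site, lie on either strand of 10 of these 120 (8.333%, beside 7.709% of all promoters) and of none of the 4 shown. The deposited counts are per gene and do not say which KCNK2 start was used.

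KCNK2 was listed at 0.0562, 0.0464 and 0.0933 CPM in SMARCA4 clone 2878-4, and at 0.593, 0.397 and 0.0911 CPM in clone 2878-6, against 36.3, 34.1 and 33.9 CPM in wild type. The 3 libraries of clone 2878-4 held 1, 1 and 2 listed counts, where 1 is the lowest value the table gives. Summed over libraries, the level was 526.2-fold lower in clone 2878-4 than in wild type, with an exact 95% interval for counting error of 205.2 to 1933. In clone 2878-6 the log2 fold change was -6.61 (SE 0.2091, adjusted p = 1.452e-33). No library of either clone came near the wild-type range.

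KCNK2 was lower by less in clones of other subunits, most of them the single clone of their gene. SMARCC1 libraries stood at 2.68, 2.65 and 2.42 CPM (log2 fold change -3.75, SE 0.1596, adjusted p = 1.853e-27). ARID1A clone 618-10 stood at 4.23, 5.54 and 3.37 CPM (-2.995, SE 0.1513), and clone 618-3 at 17.9, 14.5 and 14.7 CPM (-1.17, SE 0.1359). All lay below every wild-type library, and the ARID1A clones did not overlap each other. ACTB (8.08 ± 0.709 CPM, SD, n = 3), ARID2 (13.6 ± 0.599 CPM) and SMARCD2 (15.07 CPM on average) were called lower too. DPF2 was called at -1.02, but not without wild-type replicate 1 (-0.99) or without replicate 3 of the knockouts (-0.93). The highest KCNK2 mean was that of SMARCD3, 54.59 CPM, which was not called (log2 fold change 0.62).

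KCNK1 was low in the same SMARCA4 clones and in ARID2 cells. It was listed at 0.112, 0.0929 and 0.140 CPM in clone 2878-4, at 0.216, 0.248 and 0.137 CPM in clone 2878-6, and at 0.144, 0.163 and 0.0471 CPM in ARID2 cells, against 5.10, 4.72 and 4.52 CPM in wild type. These gave log2 fold changes of -5.28 (SE 0.3935), -4.54 (SE 0.3592) and -5.28 (SE 0.3934), with the largest adjusted p at 3.244e-16. In SMARCC2 cells KCNK1 was instead higher, at 15.1, 17.3 and 22.5 CPM (log2 fold change 1.90), and it was called higher in ARID1B (1.39) and BCL7B (1.19). Wild type with control knockdown in the double-loss table averaged 23.7 CPM, so SMARCC2 loss and separate handling cannot be told apart here. ACTB (-1.24), BRD7 (-1.38) and BRD9 (-1.51) were called lower.

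KCNK9 and KCNK6 moved the other way in SMARCA4 cells; both were singled out after their values were seen. KCNK9, an acid-sensitive leak channel, was listed at 2.42, 2.00 and 2.15 CPM in clone 2878-4 and at 3.61, 3.18 and 3.60 CPM in clone 2878-6, against 0.168, 0.180 and 0.136 CPM in wild type. Its log2 fold changes were 3.74 (SE 0.2663, adjusted p = 4.227e-18) and 4.39 (SE 0.2594, adjusted p = 2.075e-21). It was also called higher in ARID1A clone 618-10 (1.97) and SMARCC1 (1.70). The call in clone 618-3 (1.39, adjusted p = 0.03309) was lost without each wild-type replicate in turn, with adjusted p between 0.06442 and 0.1134. KCNK6 was listed at 24.8, 21.4 and 20.9 CPM in clone 2878-4, against 9.47, 9.85 and 9.45 CPM in wild type (log2 fold change 1.25). It lies on the fold threshold in SMARCA4 clone 2878-6 (1.03, and 0.97 without replicate 1 of the knockouts) and in ARID1A clone 618-10 (1.02, and 0.99 without replicate 1). KCNK6 shares its locus with YIF1B in the annotation, and whether counting used the strand is not given. KCNK5, another leak channel open at alkaline pH, was called in no clone, with group means from 14.28 to 27.08 CPM.

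**Figure D3:**
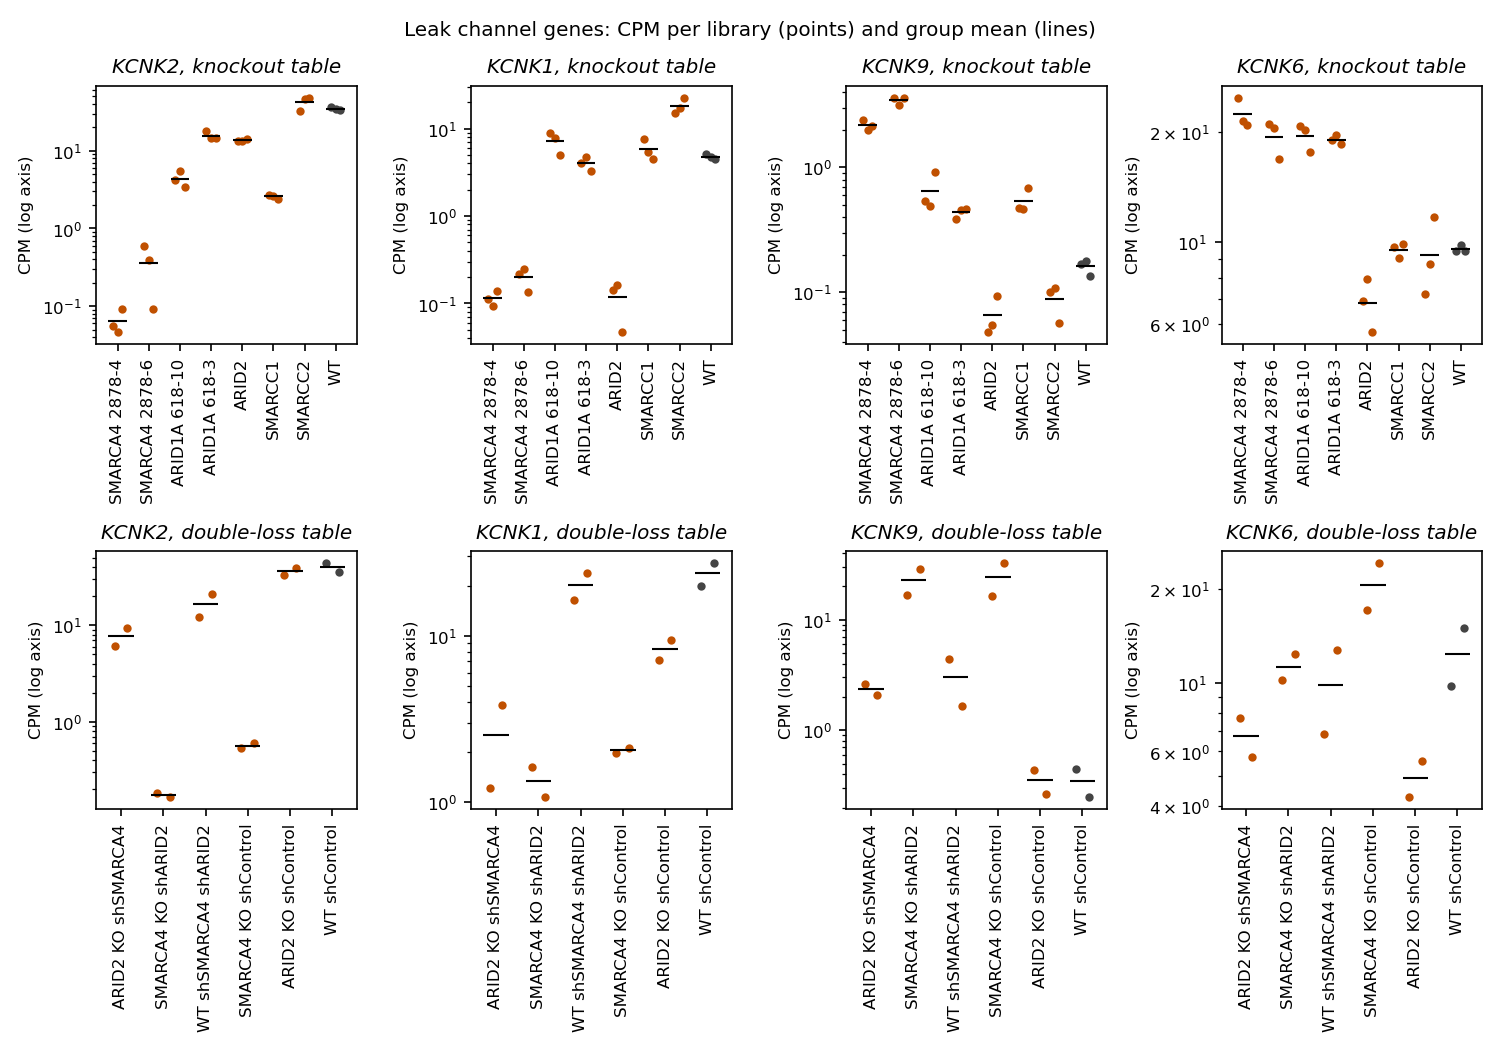
Level in CPM (log axis) of the leak channel genes KCNK2, KCNK1, KCNK9 and KCNK6 in each library of selected knockout clones and wild type (top row), and of the double-loss groups with wild type under a control knockdown at the right (bottom row). KCNK2 lies under 1 CPM in both SMARCA4 clones and above 33 CPM in wild type, and KCNK9 has the opposite order.

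In the SMARCA4 knockout cells of the double-loss table KCNK2 and KCNK1 were again lower and KCNK9 higher, while KCNK6 was not called. KCNK2 stood at 0.180 and 0.164 CPM in SMARCA4 knockout with ARID2 knockdown and at 0.531 and 0.595 CPM in SMARCA4 knockout with control knockdown, against 44.2 and 35.5 CPM in wild type with control knockdown. Log2 fold changes were -7.82 (SE 0.4774, adjusted p = 3.792e-06) and -6.17 (SE 0.4043, adjusted p = 5.009e-06). The larger one rests on 5 listed counts in all, for a ratio 233.5-fold lower with an exact 95% interval of 99.76 to 720.5. SMARCA4 knockdown in ARID2 knockout cells lowered KCNK2 to 6.12 and 9.46 CPM, against 33.1 and 39.3 CPM in ARID2 knockout with control knockdown (log2 fold change -2.27, SE 0.3144, adjusted p = 0.004723). The lower KCNK2 of the ARID2 clone was not seen here. ARID2 knockout with control knockdown was not called against wild type with control knockdown (-0.14, adjusted p = 0.9698), and their libraries overlapped. In wild type with both knockdowns it was 12.2 and 20.9 CPM, a log2 fold change of -1.27 that was not called (adjusted p = 0.08217).

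KCNK1 stood at 1.97 and 2.12 CPM in SMARCA4 knockout with control knockdown, against 20.0 and 27.4 CPM in wild type with control knockdown (log2 fold change -3.58, SE 0.4616, adjusted p = 6.12e-04). In ARID2 knockout with control knockdown it was 7.11 and 9.43 CPM, which was not called (-1.51, adjusted p = 0.1356). KCNK9 stood at 16.3 and 32.5 CPM in SMARCA4 knockout with control knockdown and at 16.9 and 28.5 CPM in SMARCA4 knockout with ARID2 knockdown, against 0.446 and 0.247 CPM in wild type with control knockdown. Its log2 fold changes were 6.02 (SE 0.6295, adjusted p = 1.472e-04) and 5.92. Its call in ARID2 knockout with SMARCA4 knockdown (2.63) was lost without either wild-type library (adjusted p = 0.0632 and 0.1442). KCNK6 stood at 17.11 and 24.34 CPM in SMARCA4 knockout with control knockdown (log2 fold change 0.70, adjusted p = 0.3054) and at 10.19 and 12.34 CPM in SMARCA4 knockout with ARID2 knockdown (-0.17, adjusted p = 0.8043), against 9.757 and 15.01 CPM in wild type with control knockdown. The libraries of the second group overlapped those of wild type.

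Among the sodium pores, SCN3A and SCN9A carried most of the differences. SCN3A, a pore best known from the fetal brain, was called higher in 6 clones, which differed in level among themselves. ARID1B libraries stood at 4.06, 3.53 and 2.88 CPM, against 0.112, 0.315 and 0.0904 CPM in wild type, close to the lowest value, and the log2 fold change was 4.26 (SE 0.3089, adjusted p = 2.729e-17). SMARCC1 libraries stood at 0.840, 0.977 and 0.578 CPM, with 2.14 (SE 0.3582, adjusted p = 5.658e-06). ARID1A clone 618-10 held 9.48, 7.71 and 6.09 CPM and clone 618-3 17.0, 12.2 and 9.30 CPM, while SMARCA4 clone 2878-4 held 10.8, 14.6 and 10.9 CPM and clone 2878-6 20.9, 11.5 and 10.1 CPM. The libraries of all 6 clones lay above every wild-type library. The other 18 clones were not called, down to 0.0529 CPM in BRD9.

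SCN3A in the double-loss table reached 29.7 and 35.7 CPM in SMARCA4 knockout with ARID2 knockdown, 3.00 and 5.10 CPM in wild type with both knockdowns, and 24.3 and 41.7 CPM in SMARCA4 knockout with control knockdown, against 0.128 and 0.165 CPM in wild type with control knockdown. The wild-type libraries held 2 listed counts each. On summed counts the ratio was 222.8 for SMARCA4 knockout with control knockdown (exact 95% interval 86.79 to 819.3) and 28.38 for wild type with both knockdowns (10.87 to 105.5). The call for wild type with both knockdowns (log2 fold change 4.73, adjusted p = 0.02413) was lost without either wild-type library (adjusted p = 0.08086 and 0.1506). ARID2 knockout cells stood at 0.464 and 1.84 CPM with SMARCA4 knockdown, and at 0.328 and 1.07 CPM with control knockdown. Neither was called against wild type.

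SCN9A, the sodium pore of pain-sensing neurons, went up in some clones and down in others. It was listed at 37.9, 35.7 and 37.7 CPM in ARID1A clone 618-10, 49.9, 40.5 and 52.4 CPM in clone 618-3, 47.9, 47.1 and 46.9 CPM in BRD7 cells and 41.5, 33.8 and 42.9 CPM in ARID2 cells, against 17.6, 17.9 and 15.2 CPM in wild type. The log2 fold changes were 1.13, 1.48, 1.47 and 1.24. It was lower in SMARCC2 cells, at 0.834, 1.47 and 0.909 CPM (-4.04, SE 0.218, adjusted p = 1.547e-22), and in BCL7B cells, at 4.78, 4.73 and 4.45 CPM (-1.86). ARID1B (-1.21), BCL11A (-1.13), BCL11B (-1.26) and DPF1 (-1.13) were lower by less.

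The SMARCA4 clones were both lower in SCN9A, by different amounts. Clone 2878-4 held 1.35, 1.44 and 1.87 CPM (-3.41, SE 0.2073) and clone 2878-6 7.33, 8.83 and 7.2 CPM (-1.11, SE 0.176). SMARCA4 knockout with control knockdown, in the double-loss table, went the other way, at 3.77 and 6.35 CPM, against 0.638 and 0.907 CPM in wild type with control knockdown (log2 fold change 2.67, SE 0.4987, adjusted p = 0.006346). That call was lost without wild-type replicate 1 (2.41, adjusted p = 0.06415). SMARCA4 knockout with ARID2 knockdown stood at 6.84 and 6.87 CPM (3.11, adjusted p = 0.001972). This rise was not particular to SMARCA4 loss, since SCN9A was called higher in 4 of the 5 double-loss groups. ARID2 knockout with control knockdown stood at 3.61 and 6.49 CPM (2.725, adjusted p = 0.01906). Wild type with both knockdowns was not called (1.29). The wild-type cells of the 2 tables, which were analysed separately, differ here. SCN9A averaged 0.7723 CPM in wild type of the double-loss table and 16.88 CPM in wild type of the knockout table. SMARCC2 cells, at 1.07 CPM on average, lay nearer the former. SCN9A overlaps SCN1A-AS1 in the annotation. On chromosome 2 the order of RefSeq genes is SCN3A, SCN2A, CSRNP3, GALNT3, TTC21B, SCN1A, SCN9A and SCN7A, apart from 1 uncharacterised locus, and of the sodium pores in this row only SCN3A and SCN9A passed the filter.

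**Figure D4:**
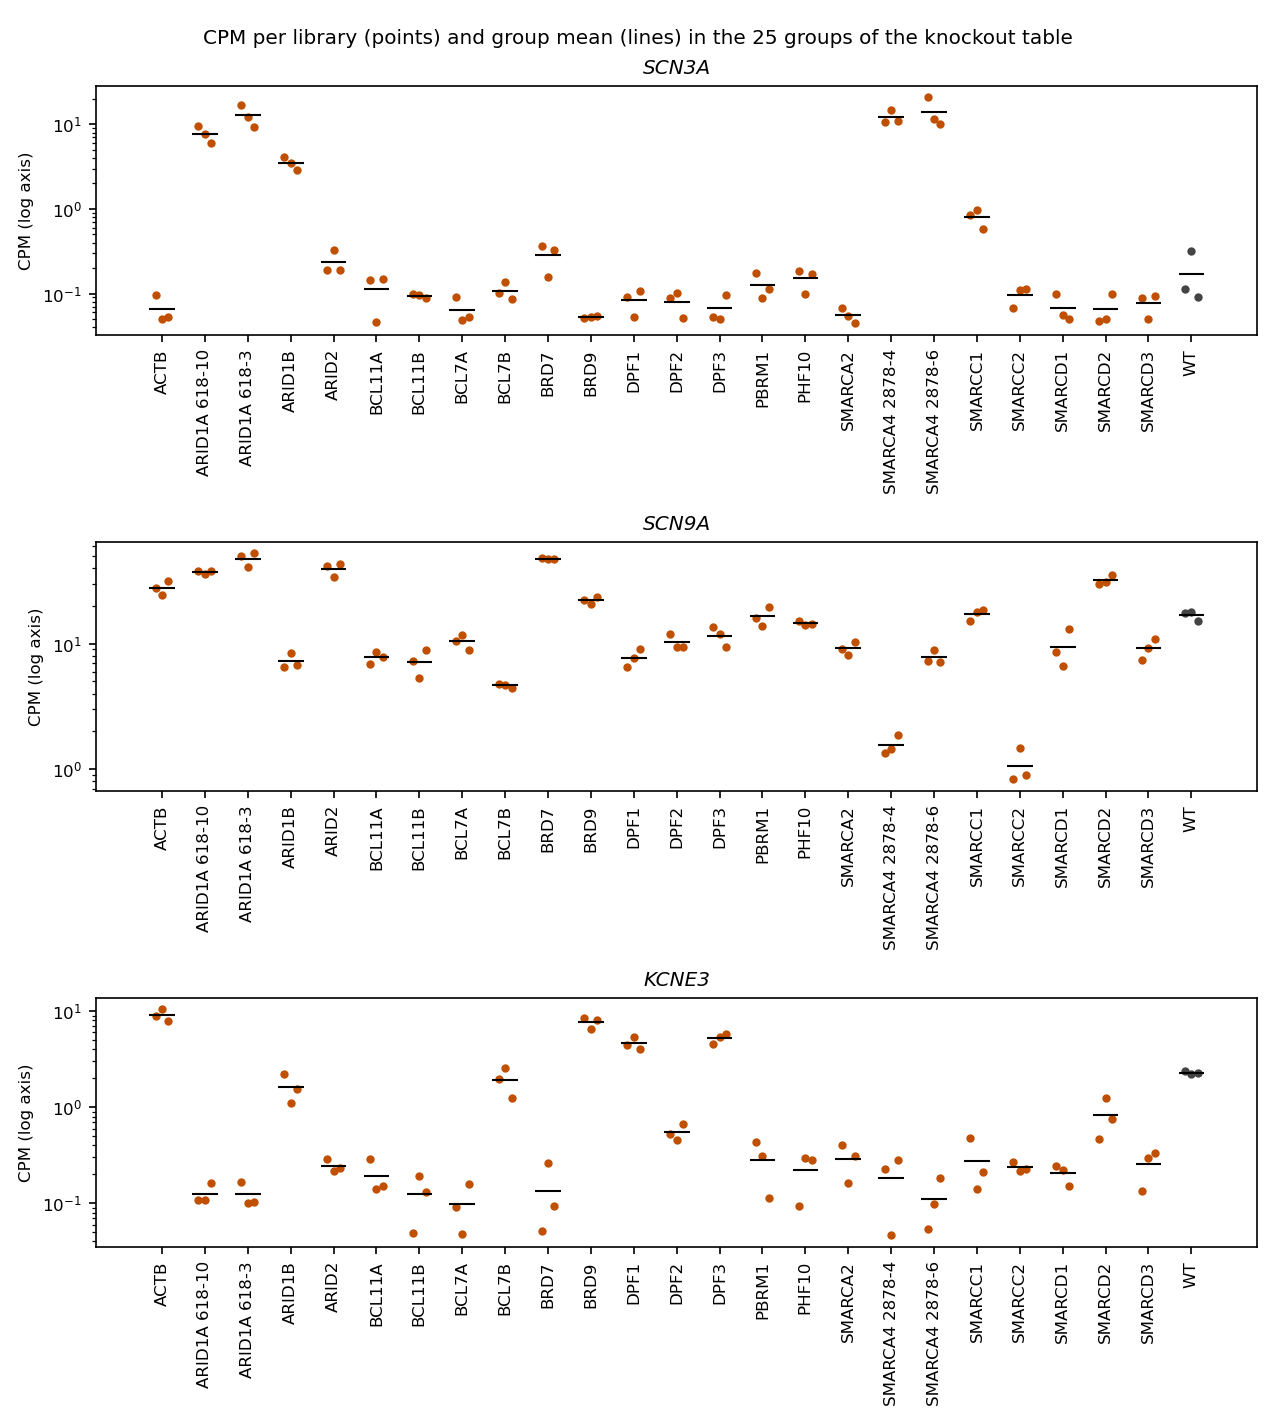
Level in CPM (log axis) of SCN3A, SCN9A and KCNE3 in every library of the 24 knockout clones, with wild type rightmost. SCN3A stands above 2 CPM in the ARID1A, ARID1B and SMARCA4 clones, SCN9A lies on either side of wild type, and KCNE3 was called lower in 18 clones.

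Of the other sodium pores, SCN8A, a main pore of adult neurons, was called in no clone and higher in 3 double-loss groups; it was singled out after its values were seen. It stood at 35.1 and 24.3 CPM in ARID2 knockout with SMARCA4 knockdown, 22.1 and 22.7 CPM in SMARCA4 knockout with ARID2 knockdown and 20.0 and 20.6 CPM in SMARCA4 knockout with control knockdown, against 9.69 and 8.99 CPM in wild type with control knockdown. Log2 fold changes were 1.61, 1.22 and 1.07. The last was lost without either wild-type library (adjusted p = 0.05494 and 0.07639), and the one of 1.22 without replicate 1 or 2 of the knockouts (adjusted p = 0.06446 and 0.07).

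The sodium channel beta subunits, membrane proteins that bind the pores and other cells, moved in either direction. SCN4B was listed at 0.169, 0.139 and 0.140 CPM in SMARCA4 clone 2878-4, 0.162, 0.0992 and 0.365 CPM in clone 2878-6 and 0.192, 0.109 and 0.141 CPM in ARID2 cells, against 1.63, 1.75 and 1.72 CPM in wild type. The log2 fold changes were -3.44, -2.95 and -3.45. DPF2 libraries stood higher, at 5.45, 8.08 and 6.65 CPM (1.97), and so did SMARCC2 libraries, at 9.10, 3.75 and 3.35 CPM (1.66). In the double-loss table SCN4B stood at 0.375 and 0.505 CPM in wild type with both knockdowns and at 0.372 and 0.463 CPM in SMARCA4 knockout with control knockdown, against 4.4 and 4.7 CPM in wild type with control knockdown. In the SMARCA4 knockout the log2 fold change was -3.47 (SE 0.4389, adjusted p = 5.454e-04). The double knockdown gave -3.35 (adjusted p = 0.0136), which was lost without replicate 1 of the knockdown (-3.16, adjusted p = 0.05377).

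SCN2B was listed at 4.21, 3.36 and 5.17 CPM in DPF2 cells and at 2.50, 1.89 and 2.37 CPM in SMARCD3 cells, against 0.560, 0.584 and 0.407 CPM in wild type. These are log2 fold changes of 3.01 (SE 0.3019, adjusted p = 1.304e-11) and 2.08 (SE 0.3085). Both SMARCA4 clones were called lower (-1.74 in 2878-4 and -2.31 in 2878-6). SCN3B was lower in ARID1A clone 618-10 (-1.18, and -0.96 without wild-type replicate 3) and in clone 618-3 (-1.11, and -0.89 without that library). SCN3B was also called higher in ARID2 knockout with SMARCA4 knockdown, where the libraries stood apart at 14.5 and 5.27 CPM, against 2.23 and 0.660 CPM in wild type with control knockdown. That call (2.65, adjusted p = 0.01745) was lost without wild-type replicate 2 (adjusted p = 0.1078).

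Of the voltage-gated potassium pores, KCND2 and KCND3, which carry fast inactivating currents, were called in the most clones. KCND2 was listed at 72.3, 79.9 and 84.5 CPM in SMARCC1 cells, against 11.9, 11.6 and 11.4 CPM in wild type (log2 fold change 2.76, SE 0.1377, adjusted p = 2.365e-24). DPF2 (29.6, 32.8 and 32.1 CPM) and SMARCD3 (26.44 CPM on average) were higher by less. SMARCA4 clone 2878-4 held 2.64, 3.11 and 2.66 CPM (-2.02) and clone 2878-6 3.72, 3.27 and 3.78 CPM (-1.68). BRD9 (-1.86) and SMARCD1 (-1.70) were lower as well. KCND2 was not called in SMARCA4 knockout with control knockdown in the double-loss table, at 15.7 and 14.4 CPM, against 8.55 and 12.9 CPM in wild type with control knockdown (log2 fold change 0.45).

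KCND3 was listed at 0.433, 0.815 and 0.682 CPM in SMARCC2 cells and at 0.974, 1.05 and 0.851 CPM in ARID1B cells, against 7.12, 8.18 and 7.86 CPM in wild type. The log2 fold changes were -3.66 (SE 0.2587, adjusted p = 1.271e-17) and -3.001 (SE 0.2454). SMARCD1 (-2.24), DPF2 (-2.03), SMARCC1 (-1.99) and BCL11B (-1.80) were among the other clones called lower. The call of a higher level in SMARCD2 (1.07) fell to 0.97 without replicate 3 of the knockouts. SMARCC1 and DPF2 cells thus had KCND2 above and KCND3 below wild type. KCND3 averaged 0.8416 CPM in wild type of the double-loss table and 7.721 CPM in wild type of the knockout table. SMARCC2 cells, at 0.6435 CPM on average, lay nearer the former.

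KCND1, the third KCND gene, was called in no clone. SMARCA4 knockdown in ARID2 knockout cells gave 10.5 and 11.6 CPM, against 2.41 and 1.87 CPM in ARID2 knockout with control knockdown (log2 fold change 2.31, SE 0.3188, adjusted p = 0.004723). Without replicate 1 or replicate 2 of the knockdown the adjusted p was 0.08899 and 0.1237. The silent subunit KCNS3 was called in no clone, with group means from 23.31 to 49.97 CPM.

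Among auxiliary subunits KCNE3, which holds KCNQ1 channels open in epithelia, was called in more clones than any other channel gene. It was listed at 8.98, 10.5 and 7.89 CPM in ACTB cells and at 8.40, 6.45 and 8.18 CPM in BRD9 cells, against 2.41, 2.20 and 2.26 CPM in wild type. These log2 fold changes were 2.01 (SE 0.2728, adjusted p = 4.147e-08) and 1.73. DPF3 (1.21, lost without replicate 3 of the knockouts at an adjusted p of 0.05197) and DPF1 (1.01, lost without wild-type replicate 1 at 0.06255) were also called higher. ARID1B and BCL7B were not called. The other 18 clones were called lower, with means from 0.09885 CPM in BCL7A (log2 fold change -4.48, SE 0.4363, adjusted p = 3.026e-12) to 0.8248 CPM in SMARCD2 (-1.48). Since all 24 comparisons rest on the same 3 wild-type libraries, the 18 calls are not 18 separate observations of a wild-type level.

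The control knockdown cells of the other table give KCNE3 a separate wild type. It stood at 0.266 and 0.0661 CPM in SMARCA4 knockout with control knockdown, against 2.55 and 2.80 CPM in wild type with control knockdown (-3.91, SE 0.6336, adjusted p = 0.002521). ARID2 knockout with control knockdown stood at 0.437 and 0.267 CPM. Its call (-2.92, adjusted p = 0.0431) was lost without either wild-type library (adjusted p = 0.08998 and 0.141).

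KCNAB2, a cytoplasmic beta subunit, was listed at 15.2, 5.64 and 4.77 CPM in ARID1B cells and at 7.62, 8.59 and 8.29 CPM in BCL7B cells, against 1.23, 2.16 and 1.13 CPM in wild type. These gave log2 fold changes of 2.48 (SE 0.3893) and 2.42 (SE 0.3883), and 1 ARID1B library stood far above the others. KCNIP3, a calcium sensor that binds KCND pores, was called higher in ACTB (1.25), BCL11B (1.20) and PHF10 (1.09). Without replicate 3 of the knockouts the BCL11B and PHF10 values were 0.97 and 0.96, under the fold threshold.

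KCNQ1, the pore partner of KCNE3, was called in 11 clones, in each of them higher. Its log2 fold changes there ran from 1.06 in BRD7 to 1.36 in SMARCD1, where it was listed at 7.24, 7.00 and 5.49 CPM, against 2.52, 2.70 and 2.31 CPM in wild type (SE 0.2035, adjusted p = 5.184e-07). The calls in BRD7, SMARCC1 and SMARCD3 fell under the fold threshold without 1 knockout library (0.99, 0.93 and 0.97). KCNQ1 overlaps the antisense genes KCNQ1OT1 and KCNQ1-AS1, whose reads cannot be told apart from it here. Since the 11 calls rest on the same wild-type libraries, they are not 11 separate observations of a wild-type level. In the double-loss table KCNQ1 was called in no group against wild type with control knockdown. In SMARCA4 knockout with control knockdown its log2 fold change was 0.61, with libraries that overlapped.

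Of the KCNH pores, relatives of the ether-a-go-go channel of flies, KCNH8 was called lower in 11 clones and KCNH5 lower in 8 and higher in 1, while KCNH4 was called higher in 4, KCNH3 lower in 1 and KCNH2 in none. KCNH8 was listed at 0.112, 0.0464 and 0.140 CPM in SMARCA4 clone 2878-4, 0.216, 0.0992 and 0.137 CPM in clone 2878-6, 0.214, 0.271 and 0.163 CPM in ARID1A clone 618-10 and 0.222, 0.355 and 0.208 CPM in clone 618-3, against 1.74, 1.53 and 2.22 CPM in wild type. They gave log2 fold changes of -4.10, -3.56, -3.05 and -2.79, the largest adjusted p being 3.499e-11. ARID1B was lower too (-2.08), while ARID2 cells had the highest mean, 3.543 CPM, and were not called (0.96). In the double-loss table SMARCA4 knockout with control knockdown stood at 0.159 and 0.265 CPM, against 2.62 and 2.14 CPM in wild type with control knockdown (-3.51, adjusted p = 0.001967).

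KCNH5 did not exceed the lowest listed value in SMARCA4 clone 2878-6, against 0.392, 0.450 and 0.452 CPM in wild type. With 3 counts per library as the floor, its log2 fold change is bounded at -1.53 or lower. In SMARCA4 knockout with ARID2 knockdown both libraries were at the lowest value, against 2.30 and 3.05 CPM in wild type with control knockdown, and the bound is -3.65. KCNH4 was called higher in BCL11B cells, at 0.991, 0.821 and 1.23 CPM, against 0.168, 0.225 and 0.271 CPM in wild type (2.12, SE 0.343).

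Of the KCNN channels, which respond to calcium, KCNN3 was listed at 0.899, 0.464 and 0.327 CPM in SMARCA4 clone 2878-4 and at 0.755, 0.347 and 0.501 CPM in clone 2878-6, against 3.98, 3.60 and 3.07 CPM in wild type. The log2 fold changes were -2.65 and -2.72. In ACTB cells it was higher, at 10.7, 11.5 and 10.6 CPM (1.64). KCNN2 was called higher in BCL11A, at 1.07, 1.63 and 1.81 CPM, against 0.392, 0.450 and 0.362 CPM in wild type (1.87). KCNN1 was called in no clone, and its highest group mean was 1.477 times its lowest.

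Inward rectifiers were called lower more often than higher, in 30 and 7 of 240 gene-by-clone comparisons (12.5% and 2.917%, where 2.24% and 2.46% of all comparisons were). KCNJ8 gave 12 of the 30 and KCNJ12 another 9, while KCNJ4, KCNJ11, KCNJ14 and KCNJ15 were called in no clone. KCNJ12, a strong rectifier of heart and muscle, was listed at 7.32, 7.88 and 8.10 CPM in ACTB cells, against a mean of 1.069 CPM in wild type (log2 fold change 2.87, SE 0.2027, adjusted p = 1.069e-17). It was lower in SMARCD1 (-2.63), DPF3 (-2.61) and BCL7B (-2.30). KCNJ12 has near-identical copies in the genome, and how shared reads were counted is not given, so these values are uncertain. KCNJ8, the pore of the ATP-sensitive channel of vascular smooth muscle, was listed at 0.0518, 0.0520 and 0.140 CPM in BRD7 cells, against 0.728, 0.719 and 1.54 CPM in wild type (-3.52, SE 0.4843). SMARCD3 (-3.36), SMARCC1 (-3.25), ARID2 (-3.03), PBRM1 (-2.97) and ACTB (-2.84) were also called lower.

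The 2 clones of a gene could be set against each other directly, without wild type. ARID1A clone 618-10 against clone 618-3 gave 2 channel genes called higher and 3 lower, beside 1.26% of all tested genes called in either direction. KCNJ12 stood at 4.45, 6.03 and 5.43 CPM in clone 618-10, against 0.945, 1.73 and 0.935 CPM in clone 618-3 (log2 fold change 2.14, SE 0.2021, adjusted p = 3.955e-12). KCNK2 was lower in clone 618-10 (-1.83). SCN2B (1.42), KCNN2 (-1.54) and KCNN3 (-1.04) were called too, but without replicate 2 of the clones their adjusted p was 0.2341, 0.08109 and 0.05284, and the count was then 3 in place of 5. SMARCA4 clone 2878-4 against clone 2878-6 gave 1 higher and 2 lower, beside 1.85% of all tested genes. SCN9A was lower in clone 2878-4 (-2.30). KCNK2 (-2.29) and KCNJ8 (1.15) were called but lost without replicate 1 of the clones (adjusted p = 0.5869 and 0.1093), and the KCNK2 libraries of the 2 clones overlapped.

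In the double-loss table, 18 of 53 tested channel genes were called in ARID2 knockout with SMARCA4 knockdown (8 higher and 10 lower), beside 9.31% of all 14601 tested genes. SMARCA4 knockout with ARID2 knockdown had 8 higher and 9 lower (8.55% of all genes), and SMARCA4 knockout with control knockdown 8 and 8 (6.09%). ARID2 knockout with control knockdown had 2 and 2 (1.57%), and wild type with both knockdowns 1 and 1 (0.562%). These 5 comparisons share the wild-type libraries with the control knockdown. With the replicate number as a block, more channel genes were called in ARID2 knockout with control knockdown and in wild type with both knockdowns. The same held for SMARCA4 knockdown within ARID2 knockout. Those counts are given with the processing below, and the labels do not state that the number pairs libraries. Leaving out 1 library moved several counts by over 1.5 times. Without replicate 1 of the knockouts or without wild-type replicate 2 the first count was 11 in place of 18. Without replicate 1 or 2 of the knockouts the second was 11 or 10 in place of 17. ARID2 knockout with control knockdown had 2 without either wild-type library and 1 without replicate 2 of the knockouts, in place of 4. Wild type with both knockdowns had 1 without wild-type replicate 2 or without its own replicate 1, and 5 without its replicate 2, in place of 2.

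Set against its own knockout, SMARCA4 knockdown in ARID2 knockout cells had 1 channel gene called higher and 4 lower, beside 2.88% of all genes. The higher one was KCND1, and the lower ones included KCNK2, KCND2 (-1.58) and KCNJ4 (-1.81), the last singled out after its values were seen. KCND2 and KCNJ4 were lost without replicate 2 of the knockdown (adjusted p = 0.3984 and 0.212), and the 5 calls fell to 2 without replicate 1 and to 3 without replicate 2. ARID2 knockdown in SMARCA4 knockout cells gave no called channel gene, beside 0.0205% of all genes. In that comparison 8 channel genes had an unadjusted p under 0.05, and DESeq2 called none either.

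SMARCA4 loss could be compared between the tables, whose wild-type libraries are separate, over the 53 channel genes tested in both. Clone 2878-4 had 18 of them called and the double-loss SMARCA4 knockout with control knockdown 16. The 12 called in both make up 66.67% of the clone's list and 75% of the double-loss list. Of these, 11 had the same direction and 1, SCN9A, the opposite one. For clone 2878-6 the lists held 19 and 16 genes with 13 in both (68.42% and 81.25%), 12 in the same direction. Across the 53 genes Pearson's r between log2 fold changes was 0.8429 for clone 2878-4 and 0.915 for clone 2878-6. This is a description only, since genes are not independent replicates. Overlap and r over all tested genes are not given here, so neither is shown to be particular to channel genes. KCND2, KCNH4, KCNK6 and KCNN3 were called in each SMARCA4 clone and not in the double-loss table, and KCNH3 and SCN8A the other way round. Whether the SMARCA4 knockout cells of the 2 tables were the same clone is not stated.

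**Figure D5:**
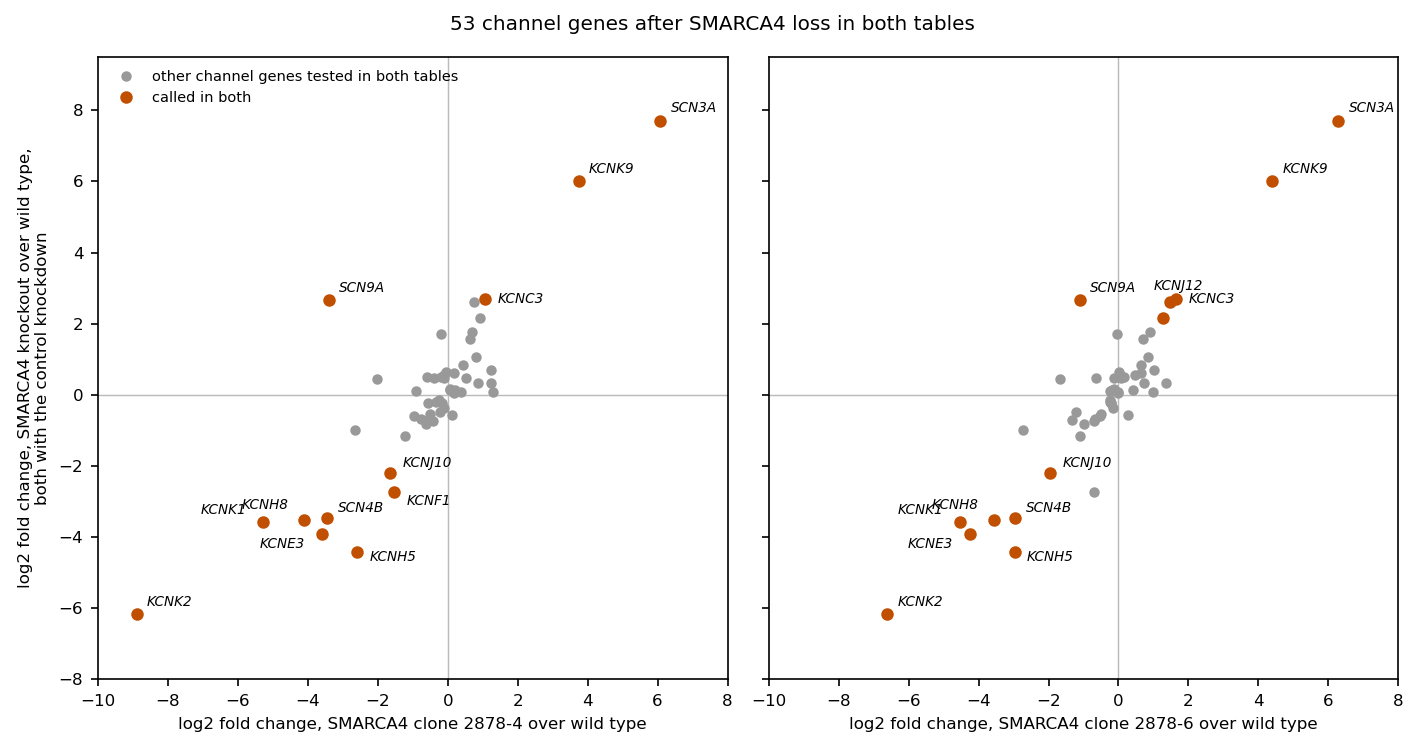
Log2 fold change of 53 channel genes in SMARCA4 knockout with control knockdown (vertical axis) against that in SMARCA4 clones 2878-4 and 2878-6 of the knockout table (horizontal axis). SCN3A, KCNK9 and KCNK2 lie far out along the diagonal (r 0.8429 and 0.915), and SCN9A is the called gene of opposite sign.

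Related gene lists were counted in the same comparisons, in which 25.3% of all tested genes were called in at least 1 clone and 2.46% of all gene-by-clone comparisons were called higher and 2.24% lower. Of 17 tested partners and anchors of channels (ankyrins, contactins, fibroblast growth factor homologues and the like), 12 were called in at least 1 clone, with 56 calls higher and 45 lower in 408 comparisons (13.73% and 11.03%). CNTNAP2, an axonal adhesion protein that clusters potassium channels, was lower in ARID2 cells (-7.34, SE 0.3242). It averaged 0.04984 CPM there, close to the lowest value, against 9.096 CPM in wild type, so the size of its fold depends on the prior count. CNTN1, which binds sodium channels, was higher in BCL7B cells (5.22, SE 0.2718). Of 19 tested calcium, HCN and epithelial sodium channel genes, 11 were called (35 higher and 20 lower in 456 comparisons, 7.675% and 4.386%), led by CACNA1I in ARID1A clone 618-10 (2.99) and HCN4 in DPF2 (2.63). Of 16 tested pumps and cotransporters, 7 were called (25 higher and 16 lower in 384 comparisons, 6.51% and 4.167%). FXYD6, a modulator of the sodium pump, averaged 3.71 CPM in SMARCA4 clone 2878-4 and 128.3 CPM in wild type (-5.09, SE 0.1255, adjusted p = 2.675e-39). Of 10 tested genes for REST, the repressor of neuronal genes including channels, and its corepressors, 1 was called. It was RCOR2, higher in ARID2 cells (1.53) and lower in 3 other clones.

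Markers of other cell types moved in the SMARCA4 clones as well. All 6 tested fibroblast markers were called higher in each, with summed levels of 511.9 to 734.8 CPM in clone 2878-4 and 521.5 to 700 CPM in clone 2878-6, against 104.3 to 126.4 CPM in wild type. FAP stayed at the lowest value in all of these libraries. In SMARCA4 knockout with control knockdown of the double-loss table, POSTN (log2 fold change 8.47), COL3A1 (3.59) and THY1 (2.69) were called higher. COL1A1 (0.34), PDGFRA (0.89) and PDGFRB (-0.11) were not called there. Of 8 tested blood lineage markers, 4 were called lower and 0 higher in clone 2878-4 (30.46 to 32.28 CPM), and 3 lower and 1 higher in clone 2878-6 (78.06 to 84.74 CPM), against 99.44 to 120.7 CPM in wild type. SPI1, a defining myeloid factor, was at the lowest value in all 3 groups. Of 10 tested neuron markers, 1 was called higher and 1 lower in clone 2878-4 (83.12 to 94.88 CPM), and 3 higher and 1 lower in clone 2878-6 (106.1 to 115.5 CPM), against 142.2 to 158.4 CPM in wild type. Such sums mostly follow the genes with the highest level. In the double-loss table TUBB3 averaged 158.6 CPM in wild type with control knockdown. In SMARCA4 knockout with control knockdown TUBB3 (-1.02) and SYT1 (-5.22) were called lower. MAP2 (1.41), DLG4 (1.36) and SYP (1.25) were called higher there, and GAP43 and RBFOX3 were not called. Over the 24 clones fibroblast markers had 31 calls higher and 41 lower in 144 comparisons, or 21.53% and 28.47%, beside the 2.46% and 2.24% of all genes. Blood lineage markers had 23 and 45 in 192 (11.98% and 23.44%), and neuron markers 32 and 26 in 240 (13.33% and 10.83%). Cardiac muscle markers had 21 and 10 in 120 (17.5% and 8.333%), glia markers 11 and 7 in 168 (6.548% and 4.167%) and markers of the lung epithelial line A549 19 and 18 in 168 (11.31% and 10.71%). The part of these markers in the channel results was not tested.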

How the data were processed

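The channel genes, the gene lists and the tests were chosen with earlier results of these data known. Per the labels' protocols, poly-A RNA was sequenced from strand-preserving libraries as single reads of 50 bases. The authors deposited gene tables of expected counts, which are whole numbers with a lowest value of 1, held by 39.94% to 47.17% of genes in the knockout libraries and by 45.54% to 49.13% in the double-loss ones. Trimmomatic, Bowtie, Picard and DESeq2 with GRCh37/hg19 are named per the submitters' processing notes. Which tool counted the reads, whether it used the strand and what it did with shared reads is not given in the sources used here. A separate deposited table holds the authors' quantile-normalized log2 TPM (71 columns used, as an alternative). In wild type its values followed log2 CPM over 14508 genes (Pearson's r 0.9998) and hardly transcript length (Spearman's rho of the difference 0.07302). Levels are therefore compared only within a gene. Across all files, 8 columns matched no labelled sample and were not used.

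Counts were rounded and analysed in R 4.3.3 with edgeR 4.0.16 (filterByExpr, TMM, robust quasi-likelihood fit, with a term for each group, all libraries of a table in 1 fit). The filter left 16159 genes of the knockout table, and 14601 of the other table, and p-values were adjusted by Benjamini-Hochberg over these. On simulated counts, 92% of genes changed 4-fold and 35% of those changed 2-fold were called for SMARCA4 clone 2878-4, and 85% and 24% for ARID2 knockout with SMARCA4 knockdown. The simulation gave each gene the spread typical of its level and no spread of its own. Its changed genes were drawn from all tested genes, so these shares do not give the recovery of channel genes near the lowest value. Errors are SDs between libraries or SEs of the fit, and exact intervals for ratios that rest on few counts cover counting error only. Alternatives were DESeq2 1.42.0, its size factors, other filters, 1 subtracted from every value, the replicate number as a block, limma 3.58.1 on log2 TPM, each clone fitted with wild type only, and each replicate left out. Leaving out replicate n of the knockouts removes it from every knockout group at once.

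Genes were named by a rule. Those that were called, had a mean of 1 CPM or more in the higher group and had no overlap between libraries gave the 12 called in the most clones, the largest change in each direction per clone and double-loss comparison, those called between clones or the same way in all SMARCA4 and ARID1A clones. The 6 highest in wild type in the log2 TPM table were added whether called or not. Other genes named are said to be chosen after their values were seen, apart from members of the counted lists and counts of 5 or fewer. Some channel genes that enter the counts are not reported here by name.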

Additional observations from a re-analysis of the deposited data

Results flagged for a closer look

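Channel genes whose response differed between the 2 clones of a knocked-out gene, by the test of clone against clone in edgeR, are given here with that difference. Between ARID1A clones 618-10 and 618-3 the log2 difference was 2.14 for KCNJ12, -1.83 for KCNK2, -1.54 for KCNN2, -1.04 for KCNN3 and 1.42 for SCN2B. Between SMARCA4 clones 2878-4 and 2878-6 it was 1.15 for KCNJ8, -2.29 for KCNK2, with libraries that overlap, and -2.30 for SCN9A.

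SCN9A went opposite ways after SMARCA4 loss in the 2 tables, higher in both libraries of SMARCA4 knockout with control knockdown (log2 fold change 2.67) and lower in all libraries of both SMARCA4 clones of the knockout table. In the double-loss table ARID2 knockout with control knockdown was called higher too (2.725), so the rise there was not particular to SMARCA4 loss. The difference between the tables was not tested. Their wild-type cells stood far apart for this gene, at 0.7723 CPM in the double-loss table and 16.88 CPM in the knockout table.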

How the results depend on the processing

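Of 303 calls of a channel gene in a comparison, 197 held under every alternative in which that gene and comparison were tested. The other 106 were lost under at least 1, and none changed direction. Calls whose gene an alternative did not test are not counted as lost. Under the stricter filter on low counts, 216 calls held, 2 were lost and the rest were not tested. Most losses came from leaving out libraries. DESeq2 lost 28 calls, dropping the filter on low counts 31 and the replicate block 1.

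A stricter filter on low counts, which removes genes, left 67 calls higher in place of 101 over the 24 clones, 9 in place of 15 in ARID1A clone 618-3, 10 in place of 18 in ARID1B, 8 in place of 14 in ARID2, 13 in place of 20 in SMARCA4 clone 2878-4 and 11 in place of 17 in SMARCA4 knockout with ARID2 knockdown. Fitting each clone with wild type only gave 9 in ARID1A clones 618-10 and 618-3, and 1 in PHF10 and in SMARCA2. limma on log2 TPM gave 1 in DPF3. DESeq2 gave 1 between the SMARCA4 clones, 4 in wild type with both knockdowns and 8 for SMARCA4 knockdown within ARID2 knockout. The cause was not tested.

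With 1 replicate left out, the count ran from 3 to 5 in BCL7A, 6 to 9 in DPF2, 1 to 2 in DPF3, 1 to 3 in PHF10, 1 to 3 in SMARCA2, 3 to 4 between the ARID1A clones and 1 to 2 between the SMARCA4 clones. It ran from 1 to 3 in ARID2 knockout with control knockdown, 11 to 16 in ARID2 knockout with SMARCA4 knockdown, 10 to 15 in SMARCA4 knockout with ARID2 knockdown, 1 to 5 in wild type with both knockdowns and 2 to 3 for SMARCA4 knockdown within ARID2 knockout. In the double-loss table the library left alone is assumed to vary like the other groups.

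The labels give libraries with the same replicate number nothing shared but the number. Their deviations from the group means correlated at 0.03773 on average in the knockout table (lowest -0.3605), where the number did not pair them. In the double-loss table a group has 2 libraries, whose deviations mirror each other. The 30 pairs therefore hold each correlation under both replicate numbers and are not 30 separate values. The correlation was 0.297 on average, positive for all 30 pairs and over 0.1 for 86.67% of them (lowest 0.09087). This hints at a pairing that the labels do not state. With the replicate block the count was 8 in ARID2 knockout with control knockdown (4 without it), 10 in wild type with both knockdowns (2) and 9 for SMARCA4 knockdown within ARID2 knockout (5). limma had no value for SMARCC2 or for the totals over 24 clones, and wild-type libraries were not left out of comparisons that do not use them. Depth limits genes near the lowest listed value of 1, whose folds depend on the prior count.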

Other observations

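Tested and called in no clone were 24 channel genes, among them KCNC4, KCND1, KCNAB3, KCNE4, KCNIP2, KCNMB1, KCNG3, KCNS3, KCNV2, KCNH2, KCNJ4, KCNJ11, KCNJ14, KCNJ15, KCNK3, KCNK5, KCNK12, KCNK15, KCNN1, SCN8A and SCN11A. Of these, KCND1, KCNIP2 and KCNG3 were each called higher in 1 double-loss group and SCN8A in 3, while KCNJ4 was called lower in 1. KCNH2, the hERG pore of the heart, had group means between 10.88 and 17.97 CPM over the 25 groups.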
